A study of Homo sapiens with 12 samples.

Results

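Genes of DNA replication, the cyclins, the cyclin-dependent kinases (CDKs) and their inhibitors, the E2F factors and MYC were examined in HuH-7 cells after a gain or block of the microRNA miR1908-5p. Members were taken by symbol from the platform's probe annotation: MCM, ORC, RFC, GINS, POLA, POLD, POLE, E2F, CDK and CDKN symbols with a number and at most 1 further letter, cyclins A to E, and CDC6, CDC7, CDC45, CDT1, PCNA and MYC. The rule found 54 genes among 14884 named genes, carried by 56 of 53617 probe sets, and each gene was read from its brightest probe set. No ORC, RFC, POLA, POLD or POLE symbol matched. CDKN1A and CDKN1B, which encode the p21 and p27 inhibitors, were not named by the annotation used and are not analysed here.

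Replication starts when the origin loading factors CDC6 and CDT1 place the MCM helicase on DNA, a step called licensing. CDC7 and the CDKs then switch the helicase on together with CDC45, the GINS complex and MCM10, and PCNA, the sliding clamp, holds the polymerases on the template. E2F factors drive transcription of most of these genes before S phase, cyclin D with CDK4 or CDK6 releases E2F from the retinoblastoma protein, and MYC is a growth-promoting transcription factor upstream of many cyclin and E2F genes. HuH-7 is an established line grown from a human hepatocellular carcinoma, so its cells divide in culture, unlike most hepatocytes of adult liver.

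All cultures were HuH-7 cells in low glucose DMEM with serum, transfected with a lipid reagent for 72 h. They received a miR1908-5p mimic, a mimic control, a miR1908-5p hairpin inhibitor or an inhibitor control, and the controls were oligonucleotides carrying the dye Dy547. The labels give an oligonucleotide concentration of 9 nM, and the methods a slightly higher one. Each of the 4 treatments was run once on each of 3 occasions, which gave 12 arrays. An array reports the mean over a transfected culture, so fewer cycling cells and less RNA of a gene per cell cannot be told apart.

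The mature microRNA has its seed, bases 2 to 8 and the part that pairs with targets, in capitals. RefSeq places it on the minus strand at chr11:61815209-61815229 (GRCh38.p14), and the study describes its gene as intronic in FADS1.
hsa-miR-1908-5p: cGGCGGGGacggcgauugguc

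Promoters of the 3 members that differed most between occasions are shown next, since replication genes are a textbook group of E2F targets. They are RefSeq windows of 300 bases on GRCh38.p14, from 250 bases before to 50 after the gene start, written on the gene's strand. GINS2 lies at chr16:85688905-85689204, MCM6 at chr2:135876394-135876693 and PCNA at chr20:5126573-5126872, each on the minus strand. PCNA has 2 listed promoters, of which the one with a match is shown. Capitals mark matches on either strand to the E2F letters TTTCCCGC, TTTCGCGC, TTTGCCGC or TTTGGCGC.
GINS2 promoter: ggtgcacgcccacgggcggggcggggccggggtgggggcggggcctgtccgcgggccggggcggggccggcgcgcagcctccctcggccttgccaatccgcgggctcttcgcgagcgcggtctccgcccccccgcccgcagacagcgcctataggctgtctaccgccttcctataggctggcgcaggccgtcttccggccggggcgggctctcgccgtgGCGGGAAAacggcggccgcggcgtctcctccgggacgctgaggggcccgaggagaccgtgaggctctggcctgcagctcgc
MCM6 promoter: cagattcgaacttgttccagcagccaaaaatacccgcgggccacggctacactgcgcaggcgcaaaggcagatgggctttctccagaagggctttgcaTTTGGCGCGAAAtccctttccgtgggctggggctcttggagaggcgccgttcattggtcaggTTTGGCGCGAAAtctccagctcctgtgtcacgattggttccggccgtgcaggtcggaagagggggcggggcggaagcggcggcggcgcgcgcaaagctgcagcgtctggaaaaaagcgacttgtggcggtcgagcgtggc
PCNA promoter: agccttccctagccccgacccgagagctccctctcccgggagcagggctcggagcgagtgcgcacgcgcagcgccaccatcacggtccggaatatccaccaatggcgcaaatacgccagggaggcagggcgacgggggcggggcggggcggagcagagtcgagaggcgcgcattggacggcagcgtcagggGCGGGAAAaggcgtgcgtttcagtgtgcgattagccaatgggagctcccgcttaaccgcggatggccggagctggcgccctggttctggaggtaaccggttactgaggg
GINS2 and PCNA held 1 match each. In MCM6 a pair of capital runs each held overlapping matches on both strands, 4 in all.

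Promoters were listed for 45 of the 54 genes. The E2F letters occurred in 18 of these 45, or 40%, against 3.31% of all 35116 listed promoters and 3.99% of 27305 genes. They occurred in 15 of the 25 genes that were lower on the third occasion (60%) and in 3 of the other 20 (15%). Most of the other 20 were CDK genes, so this split also follows gene families. Of the 31 genes lower on that occasion, CCNE2, CDK2, E2F8, GINS4, MCM4 and MCM5 had no listed promoter. CCAAT, the letters of a common promoter box, occurred in 24 of 45 members against 39.7% of genes, and divided in the same direction, into 18 of the 25 lower genes (72%) and 6 of the other 20 (30%). The E-box CACGTG, a MYC binding word, occurred in 9 of 45 against 8.77% of genes (20% of the lower genes and 20% of the others), and TTTGAA, the core of the CHR element of late cell cycle genes, in 5 of 45 against 18.2% (16% and 5%). All words were searched on both strands, and the 4 E2F words can overlap one another. These are counts of letters in a window and not of bound sites.

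Array medians lay between 4.99 and 5.15 on the log2 scale, and the spread (SD) of values was 2.02 to 2.06 on 10 arrays, 1.95 on the mimic array of the third occasion and 1.98 on its control. Most of 13 named hepatocyte markers were bright, with albumin at a mean log2 value of 12.95 and alpha-fetoprotein at 12.98. APOA1, HP and KRT8 were dimmer, at 7.61, 6.97 and 6.77. Of 6 named markers of other cell types, CD14, VWF and KRT7 averaged 4.73, 4.69 and 4.60, under every array median, and CD68, PECAM1 and KRT19 were above it at 8.30, 6.38 and 6.36. Arrays of the same occasion deviated together from their group means. The median correlation was 0.24 over 18 pairs of the same occasion and -0.14 over 36 pairs of different occasions. Fits with the occasion as a block are therefore given beside the fits without it, wherever the block moved a count of calls by more than 1.5 times.

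**Figure D1:**
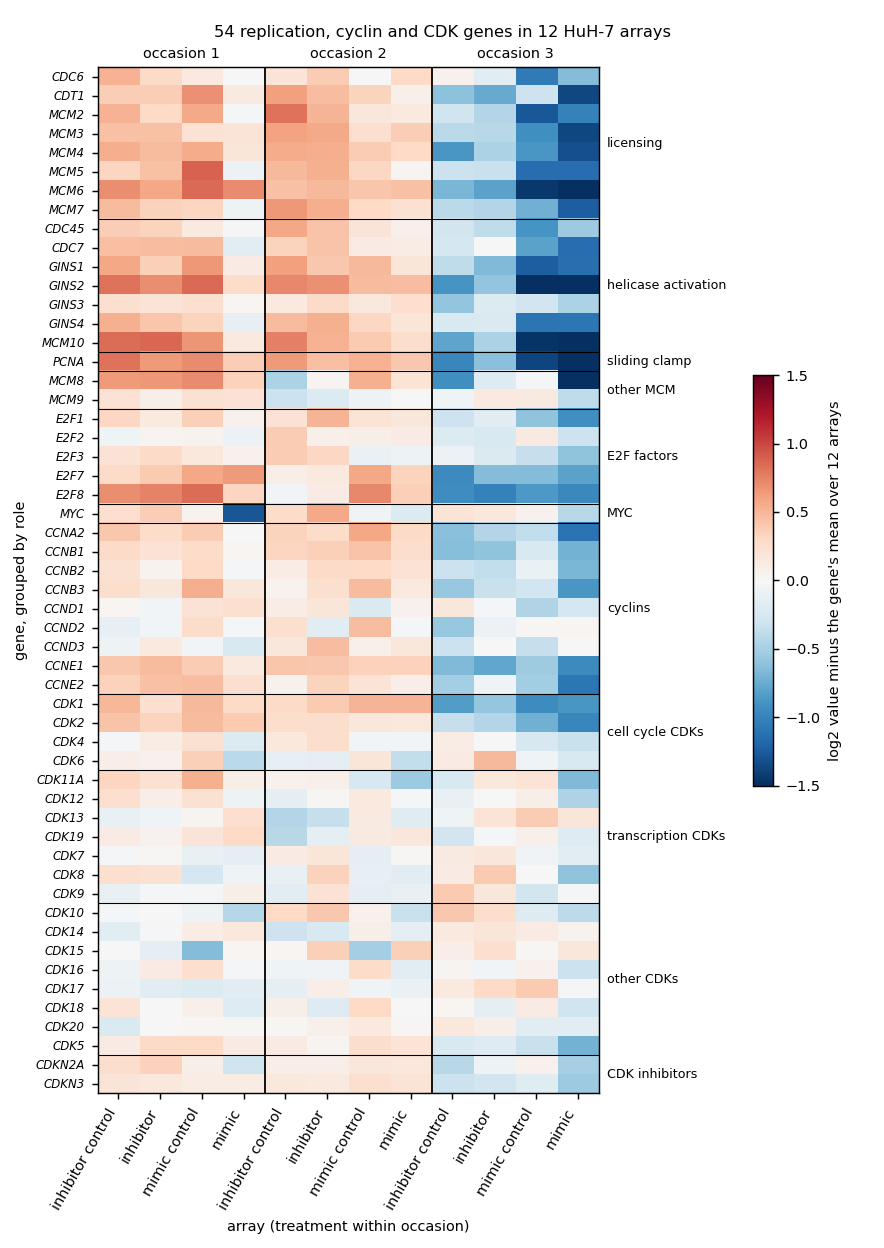
Each cell is 1 gene on 1 array, coloured by the log2 value minus the mean of the gene over 12 arrays, with arrays grouped by occasion and genes by role; colours stop at 1.5 in either direction. The licensing, helicase activation and PCNA lines turn blue in the 4 arrays of occasion 3, most deeply in the mimic and its control, whereas MYC is darkest in the mimic array of occasion 1.

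The first question was how the genes responded to the mimic. No member passed the adjusted threshold of 0.05 in limma's test of the mimic against its control, and 8 of 53617 probe sets did (0.0149%). At an unadjusted p under 0.05, 6 members were lower with the mimic (MYC, CDK6, CDK16, CDK18, CDK12 and CDK11A) against 2.41% of all probe sets, and 1 (CDK15) was higher against 2.2%. None was a licensing, helicase, PCNA, E2F or cyclin gene in this fit, which leaves the occasion out. With the occasion as a block, given below, some licensing and cyclin genes passed. Adjusted p values of all 54 were 0.921 or higher, so these names are a ranked description. The 3 mimic arrays all lay below all 3 control arrays for 6 members, namely MYC, CDK6, CDK10, CDK12, CDK16 and CDK18, against 4.62% of probe sets. The reverse held for CDK15 alone, against 4.24%.

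MYC gave log2 values of 6.54, 7.61 and 7.41 in mimic-treated cells on occasions 1 to 3 and 7.88, 7.77 and 7.89 in their controls. With the inhibitor it gave 8.19, 8.39 and 7.99, and with the inhibitor control 8.07, 8.10 and 8.03. All mimic arrays were below all others, and the array of occasion 1 stood far below its partners. The log2 difference was -0.66 (SE 0.23, 95% interval -1.17 to -0.15), a 1.58-fold lower value, with an unadjusted p of 0.0158 and an adjusted p of 0.946 in limma. Without the first mimic array the log2 difference was -0.34 and the unadjusted p from limma 0.0575 for MYC, so 1 array decided that call. The study lists MYC among genes chosen partly on these arrays, so its direction here is not independent evidence.

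CDK6, the kinase partner of D cyclins, read 6.60, 6.64 and 6.77 with the mimic and 7.36, 7.19 and 6.95 with its control. The inhibitor arrays were at 7.07, 6.86 and 7.49 and the inhibitor control arrays at 7.11, 6.88 and 7.12. Mimic and mimic control did not overlap, and the gap within an occasion shrank from 0.76 to 0.55 to 0.18. The difference was -0.49 (SE 0.18, unadjusted p 0.0172, adjusted p 0.951 in limma), or 1.41-fold lower. Without the first mimic control array it was -0.40 with an unadjusted p of 0.0699 in limma. CDK4, the other kinase of this step, differed by -0.18 (SE 0.15) and did not pass.

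CDK16 and CDK18 belong to the PCTAIRE family of CDK-related kinases. CDK16 was at 7.99, 7.86 and 7.70 with the mimic and at 8.28, 8.30 and 8.09 with the control. The inhibitor arrays read 8.14, 7.97 and 7.99, and their controls 7.94, 7.96 and 8.07. The mimic control arrays lay above every inhibitor control array, and the mimic arrays overlapped the inhibitor control. Between the controls CDK16 did not pass the unadjusted threshold in the main fit. It passed after quantile normalization, with array weights and in the methods' t-test. Against their own control, the mimic arrays were lower on every occasion and without overlap. The mimic difference was -0.37 (SE 0.13, unadjusted p 0.015, adjusted p 0.943 in limma). It was -0.30 without the third mimic array and -0.34 without the second mimic control array, with unadjusted p of 0.053 and 0.0525 in limma. CDK18 was at 5.82, 6.03 and 5.72 with the mimic against 6.10, 6.32 and 6.14. Its inhibitor arrays read 6.02, 5.82 and 5.89 against 6.22, 6.11 and 6.05 with the inhibitor control. Both treated groups lay below their own controls. The difference with the mimic was -0.33 (SE 0.14, unadjusted p 0.0313 in limma). It did not pass without the mimic array of occasion 1 (-0.31) or 3 (-0.26) or the control array of occasion 2 (-0.26). CDK17, the third member of the family, differed by -0.14 (SE 0.18).

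CDK11A and CDK12 are kinases of transcription and RNA processing. CDK11A read 5.24, 4.61 and 4.49 with the mimic and 5.69, 4.92 and 5.36 with the control. It read 5.38, 5.23 and 5.32 with the inhibitor and 5.48, 5.21 and 4.92 with the inhibitor control. Mimic and control overlapped, the mimic being lower within each occasion, and the difference was -0.55 (SE 0.24, unadjusted p 0.0424 in limma). CDK11B is a near-identical copy, so the assignment of this signal to CDK11A is uncertain. CDK12, named after its values were seen, differed by -0.34 (SE 0.16, unadjusted p 0.0489 in limma), with mimic arrays at 7.64, 7.69 and 7.26 and controls at 7.95, 7.87 and 7.81. Both calls were lost when any of several single arrays was left out, in 16 and 18 of 25 alternatives, and without the third mimic array the differences were -0.40 for CDK11A and -0.21 for CDK12. The related CDK13 differed by -0.10 (SE 0.19), and CDK9, the kinase of P-TEFb, by 0.13 (SE 0.17).

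CDK15, a little-studied kinase, had a mean log2 value of 4.36, below the median of every array. It read 4.39, 4.72 and 4.53 with the mimic and 3.71, 3.85 and 4.38 with the control. The inhibitor arrays were at 4.22, 4.72 and 4.61 and the inhibitor control arrays at 4.37, 4.39 and 4.47. The mimic arrays did not stand above the inhibitor arrays, and the mimic control arrays of occasions 1 and 2 were the lowest of all 12. The difference was 0.57 (SE 0.19, unadjusted p 0.0127, adjusted p 0.921 in limma), and 0.43 without the first mimic control array (unadjusted p 0.0599 in limma). The mimic control was also below the inhibitor control, with a log2 difference of -0.43 (unadjusted p 0.0474 in limma). CDK15 was the only member under that threshold between the 2 controls, against 5.28% of probe sets in either direction.

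**Figure D2:**
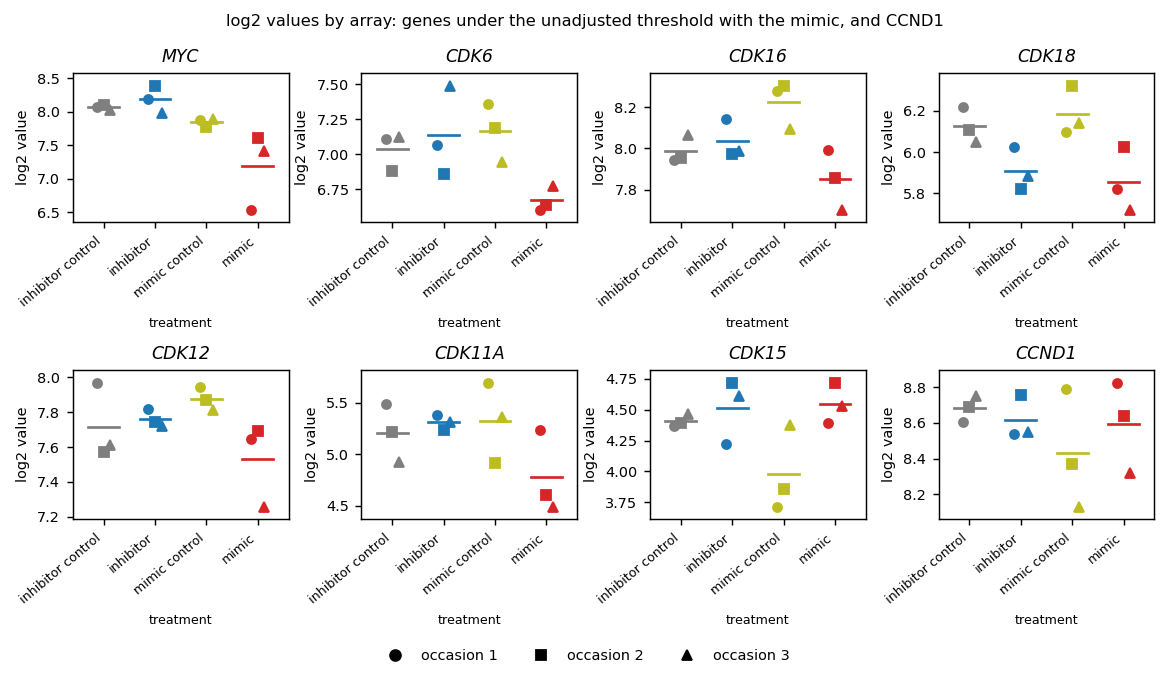
Points are log2 values of single arrays by treatment, with the occasion as symbol shape and the mean of 3 arrays as a line. MYC, CDK6, CDK16, CDK18 and CDK12 have their lowest mean in the mimic, without overlap with the mimic control, CDK11A overlaps, CDK15 is lowest in the mimic control, and CCND1 overlaps across the groups.

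CCND1, the D cyclin that pairs with CDK4 and CDK6, read 8.82, 8.64 and 8.32 with the mimic and 8.79, 8.37 and 8.13 with its control. The inhibitor arrays were at 8.54, 8.76 and 8.55 and their controls at 8.60, 8.69 and 8.75. The groups overlapped, and the mimic difference of 0.16 (SE 0.19) had a 95% interval of -0.24 to 0.57. PCNA read 9.81, 9.84 and 7.87 with the mimic and 10.15, 9.96 and 8.06 with the control, and both groups spread over more than the gap between them. Its difference was -0.22 with an SE of 0.69, and the interval ran from -1.73 to 1.30. An effect of the mimic of either sign on PCNA was therefore not detectable in the fit without the block. PCNA was lower with the mimic on each occasion, but with the block it did not pass an unadjusted p under 0.05 in limma either.

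Most members leaned lower with the mimic, by small amounts. The log2 difference was below 0 for 48 of 54 genes against 50.5% of probe sets, and the member median was -0.21 against -0.0025 for all probe sets. Within occasions 1, 2 and 3 the member medians were -0.26, -0.07 and -0.26, with 45, 39 and 42 of 54 genes lower. The mimic array was below its control on all 3 occasions for 28 genes, against 15.9% of probe sets. Many members rose and fell together over the arrays, such as PCNA with MCM10 (Pearson r 0.998 after removal of group means). The genes are therefore not separate observations, and these counts only describe the set. Members that lay higher in the fit were CDK15, CDC6, CCND1, CDK9, CCND3 and CDC45. When the mimic array of occasion 3 was dropped and its control kept, the median turned to 0.08 and 21 of 54 genes were lower. The third occasion was then present in the control group alone. For the mimic control minus the inhibitor control, the median over all members was 0.01. The replication genes differed there by as much as with the mimic. The medians were -0.25 between controls and -0.21 with the mimic for licensing genes, and -0.30 and -0.24 for helicase activation genes. Cyclins went the other way between controls, at 0.16 against -0.29 with the mimic.

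With the occasion as a block, 14 members were lower at an unadjusted p under 0.05 in limma, against 4.26% of probe sets, and 1 was higher, against 3.49%. All 7 genes called without the block were among them, and the 8 added genes were CDT1, MCM7, MCM8, CCNA2, CCNB1, CCNB2, CCNB3 and CDK10. CDT1, the licensing factor, had mimic values of 7.22, 7.15 and 5.72 against 7.76, 7.41 and 6.76, lower on each occasion. Its difference of -0.61 carried an SE of 0.48 without and 0.16 with the block, and an unadjusted p of 0.221 and 0.00421 in limma. Cyclin A2 (CCNA2), the S phase and G2 cyclin, read 10.08, 10.36 and 8.97 against 10.46, 10.66 and 9.70. Its difference was -0.47 (SE 0.14 and unadjusted p 0.00883 in limma with the block). Without the third occasion, the fit with the block left 7 members lower, against 3.39% of probe sets (MYC, CDK6, CDK16, CDK10, CCNB3, MCM5 and GINS1), and CDK15 higher, against 3.16%. CDT1 and CCNA2 did not pass there, at -0.40 and -0.34 (unadjusted p 0.0683 and 0.0697 in limma), nor did MCM7, MCM8, CCNB1 and CCNB2. The lowest adjusted p of any member with the block over all occasions was 0.371 in limma, for CDT1.

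Without the arrays of the third occasion, 44 of 54 genes were lower against 51.9% of probe sets, and the median was -0.18. In limma, 5 genes were then lower at an unadjusted p under 0.05 against 2.67% (MYC, CDK6, CDK16, MCM5 and GINS1), and CDK15 was higher against 2.49%. MCM5, a helicase subunit, read 7.37 and 7.49 with the mimic against 8.34 and 7.77 with the control on occasions 1 and 2, and on occasion 3 both read 6.31 or 6.32. CDK18, CDK12 and CDK11A did not pass on 2 occasions, though their differences stayed negative at -0.29, -0.24 and -0.38. MYC, CDK6, CDK16 and CDK15 passed with and without occasion 3. Without occasion 1 only CDK11A passed, and without occasion 2 only MYC.

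**Figure D3:**
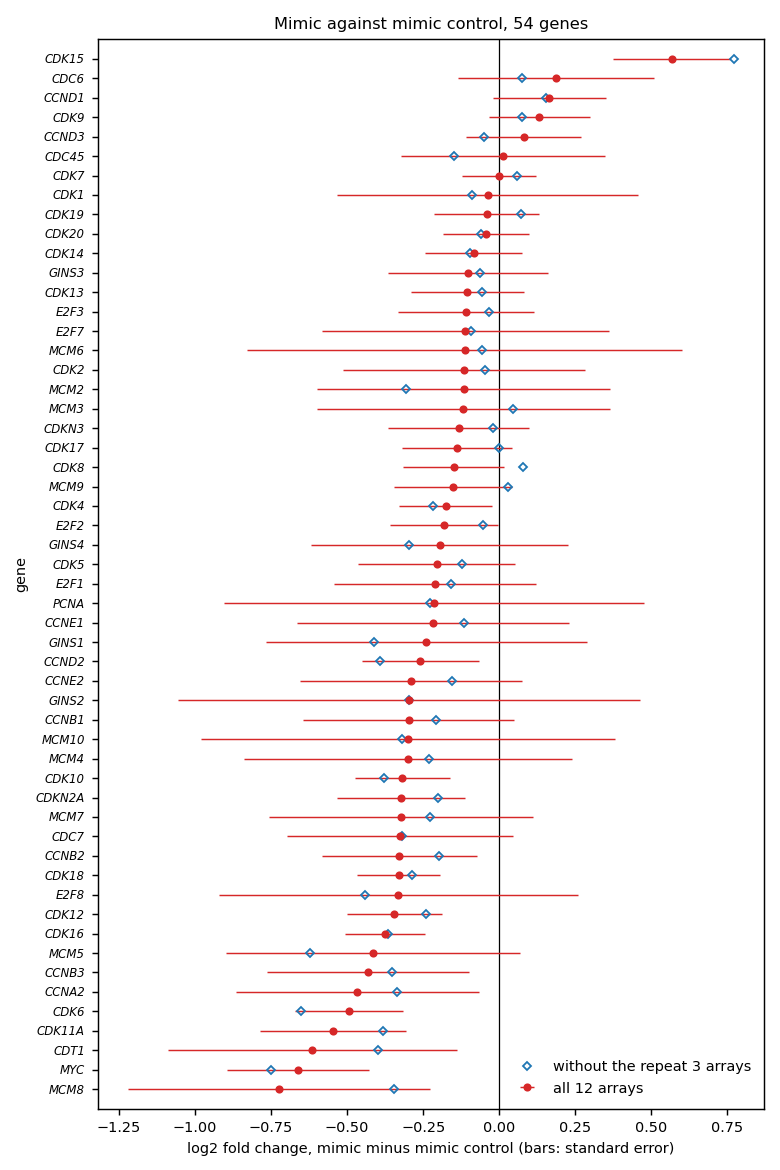
Filled points give the log2 difference of mimic minus mimic control over 3 occasions for each of 54 genes, bars the standard error, and open diamonds the difference without the arrays of occasion 3. The points lie left of 0 for 48 genes, and bars are widest for MCM6, GINS2, PCNA and MCM10, the genes that differed most between occasions.

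A wider list of 57 replication and cycle genes outside the rule, of which 38 were named, leaned the same way. With the mimic, 35 of 38 were lower against 50.5% of probe sets, and none passed an unadjusted p under 0.05 in limma, with a median of -0.21. The lowest p values belonged to WEE1, the kinase that restrains CDK1, at 0.48 (p 0.0515), and to DBF4, the activator of CDC7, at -0.49 (p 0.074). MAX, the partner of MYC, CDC25B, TOP2A and TFDP1 followed at -0.23, -0.32, -0.40 and -0.38. At that threshold in limma 9 were lower with the block, against 4.26% of probe sets, and 1, WEE1, was higher, against 3.49%.

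The inhibitor, tested against its own control, moved no member past an unadjusted p under 0.05 in limma, against 2.92% of probe sets, and none with the block, against 4.51%. The log2 difference was above 0 for 35 of 54 genes against 50.3%, and the median was 0.05. Member differences ran from -0.24 to 0.42. The lowest p values were those of CDK18, CCND3 and CDK8. The 3 inhibitor arrays of CDK18, given above, lay below the 3 controls, which held for this 1 member against 4.29% of probe sets, with a difference of -0.21 (SE 0.14, unadjusted p 0.139 in limma). CCND3, the third D cyclin, read 5.53, 5.85 and 5.40 with the inhibitor and 5.32, 5.56 and 5.07 with the control. It was higher on each occasion while the groups overlapped, with a difference of 0.28 (SE 0.19). CDK8, the kinase of the Mediator complex, read 7.91, 8.03 and 8.07 against 7.94, 7.57 and 7.80, overlapped, and differed by 0.23 (SE 0.17).

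A miss of the threshold does not show that the inhibitor left these genes unaltered. For MYC the inhibitor difference was 0.13 with a 95% interval of -0.39 to 0.64, and for CDK6 it was 0.10 with an interval of -0.29 to 0.49. The difference between the mimic and inhibitor responses was itself tested. It passed an unadjusted p under 0.05 in limma for 3 members (5.56%), near the 4.24% of all probe sets, and none passed after adjustment. They were MYC at -0.79 (SE 0.33, p 0.0357), CDK6 at -0.60 (SE 0.25, p 0.036) and CDK16 at -0.42 (SE 0.19, p 0.0437). None of the 3 passed after quantile normalization, nor without the second inhibitor control array or the first mimic control array. With the block there were 8, against 7.02%, namely these 3 with CCNA2, CCNB3, CCNE2, CDK11A and MCM8. Between the 2 controls 11 members passed the unadjusted threshold with the block, against 8.71% of probe sets. In the mimic control 5 were lower and 6 higher. They were MCM8, CCNB3, CDK15, CCND2, CDK13, CDK19, E2F7, the licensing genes CDC6 and MCM2, and the helicase activation genes CDC45 and GINS4.

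The largest differences among these genes lay between occasions. In a model of treatment and occasion, 31 of 54 members were lower on the third occasion than on the first and second at an adjusted p under 0.05 in limma, against 4.9% of probe sets. None was higher, against 3.68%, while 2 of 54, CDK13 and CDK17, were higher at an unadjusted p under 0.05, against 13.6%. The array of the third occasion was below the arrays of both other occasions in all 4 treatments for 32 genes, against 7.86%, and the 32nd gene was CDKN2A, which encodes p16 and ARF. The member median was -0.57 against 0.04 for all probe sets. Each occasion was 1 run of 4 cultures, so the occasions themselves were not replicated and p values measure the spread between arrays.

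PCNA on occasions 1 to 3 read 10.25, 10.07 and 8.45 with the inhibitor control, 10.07, 9.89 and 8.81 with the inhibitor, 10.15, 9.96 and 8.06 with the mimic control and 9.81, 9.84 and 7.87 with the mimic. The 4 arrays of the third occasion were all below the other 8, without overlap. The difference was -1.70 (SE 0.13), a 3.26-fold lower value, with an adjusted p of 0.000391 in limma.

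GINS2, a subunit of the GINS complex, read 7.80, 7.71 and 6.10 with the inhibitor control, 7.69, 7.68 and 6.40 with the inhibitor, 7.84, 7.46 and 5.39 with the mimic control and 7.26, 7.45 and 5.09 with the mimic. Again the third occasion was lowest in each treatment, and it was lower still in the mimic pair than in the inhibitor pair. The difference was -1.87 (SE 0.17, adjusted p 0.000547 in limma), or 3.64-fold lower. MCM6, a subunit of the replicative helicase, read 9.30, 9.05 and 7.92 with the inhibitor control, 9.19, 9.10 and 7.81 with the inhibitor, 9.45, 9.02 and 7.15 with the mimic control and 9.32, 9.04 and 6.92 with the mimic. On occasions 1 and 2 the 4 treatments lay close together. The difference between occasions was -1.73 (SE 0.17), 3.32-fold lower.

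**Figure D4:**
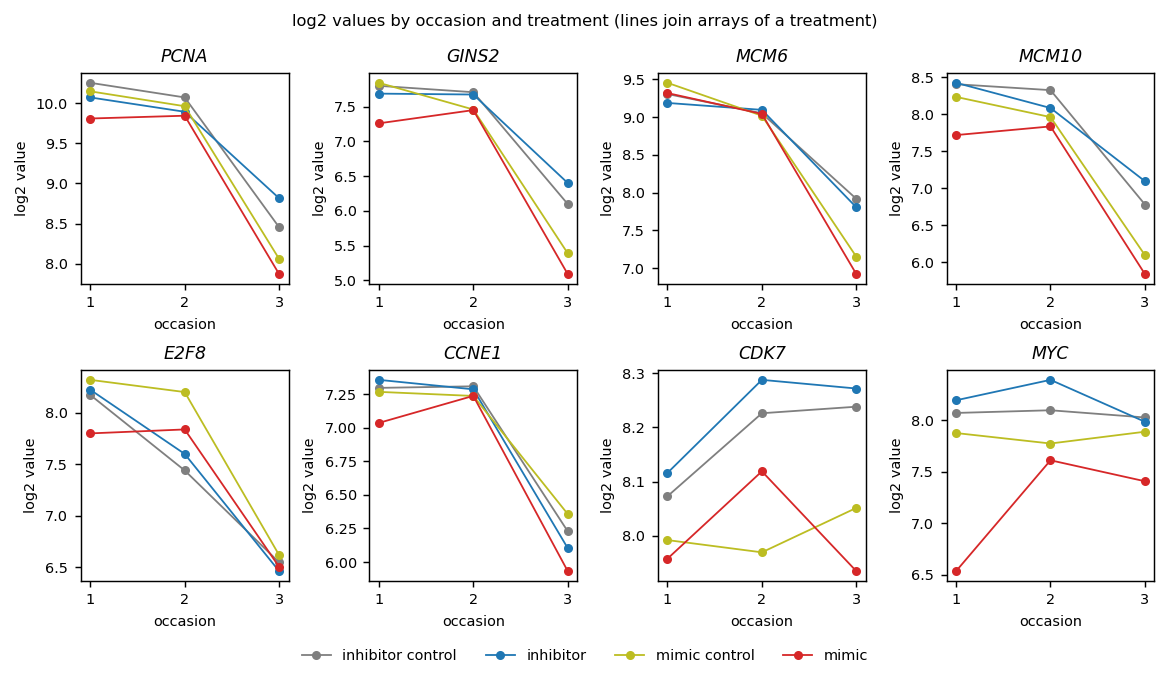
Points are log2 values of single arrays on occasions 1 to 3, joined by a line within each treatment. PCNA, GINS2, MCM6, MCM10, E2F8 and CCNE1 drop on occasion 3 in all 4 treatments, whereas CDK7 and MYC do not drop together.

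By role, all 8 licensing genes passed (CDC6, CDT1 and MCM2 to MCM7), from -0.67 for CDC6 to -1.73 for MCM6. All 7 helicase activation genes passed (CDC7, CDC45, GINS1 to GINS4 and MCM10), from -0.58 for GINS3 to -1.87 for GINS2. Among 5 E2F factors, E2F8 and E2F7, the atypical repressors, differed by -1.41 and -1.15, E2F1 by -0.75 and E2F3 by -0.47, and E2F2 did not pass at -0.23. Of 9 cyclins the 6 of the E, A and B types passed, led by CCNE1 at -1.10 and CCNA2 at -0.95, and the D cyclins CCND1, CCND2 and CCND3 did not, at -0.21, -0.22 and -0.25.

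Of the cell cycle kinases CDK1 (-1.21) and CDK2 (-0.93) passed, the partners of the A, B and E cyclins, and CDK4 (-0.17) and CDK6 (0.12), the partners of the D cyclins, did not. None of 7 transcription CDKs passed, with a range of -0.20 to 0.27. Of 8 other CDKs, CDK5 passed at -0.55. CDK17, at 0.31, was the 1 member above both other arrays in all 4 treatments, against 7.17% of probe sets. CDKN3, a phosphatase of CDKs whose own transcript peaks in cycling cells, differed by -0.50. MCM8, a helicase of recombination repair, passed at -0.99 and MCM9, its partner, did not at -0.06. MYC differed by 0.01 (SE 0.17, 95% interval -0.37 to 0.39).

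**Figure D5:**
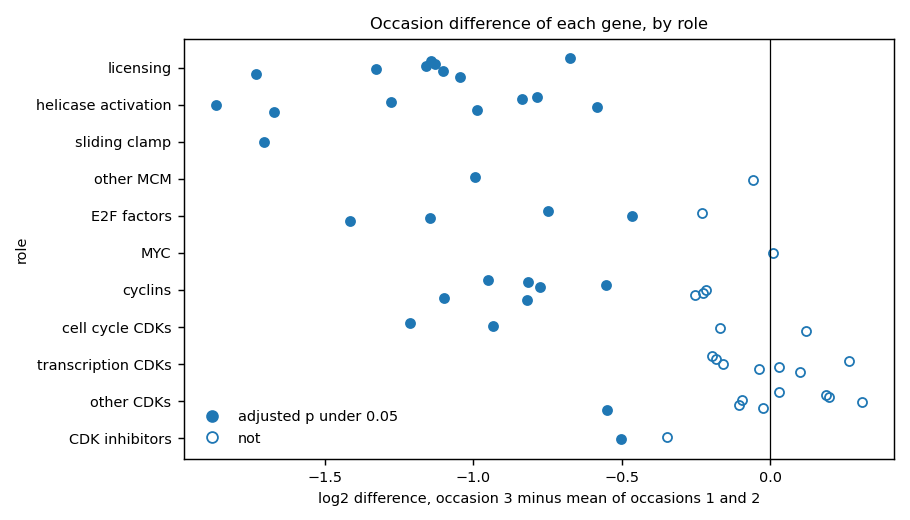
Each point is 1 gene, placed by its log2 difference between occasion 3 and the mean of occasions 1 and 2, and grouped by role; filled points had an adjusted p under 0.05. Licensing, helicase activation and PCNA points all lie at -0.58 or below, and transcription CDKs lie between -0.20 and 0.27.

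Deviations on the third occasion were taken from the gene's mean over 12 arrays, and not from the first and second occasions. Over all 54 members their median was -0.66 with the mimic and -0.19 with the inhibitor. The control arrays were alike there, at -0.30 for the mimic control and -0.31 for the inhibitor control. Both mimic arms lay lower than both inhibitor arms in a smaller set of genes. Over the 16 licensing, helicase activation and clamp genes, the median deviation from the gene's mean over 12 arrays on the third occasion was -0.44 with the inhibitor and -0.40 with its control. In the mimic array it was -1.19 and in its control -1.07. Each of these is 1 array, so the difference between arms was not tested, and the latter pair are the 2 arrays of narrowest spread. Without that pair 17 members stayed at an adjusted p under 0.05 in limma, against 0.726% of probe sets in either direction, all of them among the 31. In the inhibitor and inhibitor control arrays alone, 41 of 54 genes were lower and 33 passed an unadjusted p under 0.05, against 12.6% of probe sets, but no probe set passed after adjustment in limma. Between the first and second occasions the member median was -0.01, with single members from -0.51 to 0.30. No member passed adjusted and 4 unadjusted in limma, against 8.95% of probe sets unadjusted.

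Other transcripts moved on the third occasion as well. In the wider list, 28 of 38 genes were lower at an adjusted p under 0.05 in limma against 4.9% of probe sets, with a median of -0.69 against 0.04 for all. RRM2 and TYMS, enzymes of nucleotide supply, differed by -1.72 and -1.51, and DTL and ASF1B, a replication licensing regulator and a histone chaperone, by -1.57 and -1.54. Among 13 named hepatocyte markers HP (-1.69), APOA1 (-0.67) and TTR (-0.49) were lower and AHSG (0.42) higher, while ALB (-0.10) and AFP (-0.24) did not pass. Of 6 markers of other cell types CD68 (-0.78) and KRT19 (-0.48) were lower. The median log2 value over the hepatocyte list was 11.76 to 12.17 on the third occasion and 11.88 to 12.26 on the others, and over the other list 5.26 to 5.66 and 5.17 to 5.81. Their part in the result was not tested.

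Deviations from the group means were compared over 12 arrays for PCNA and MYC, as a description. PCNA was most like MCM10 (Pearson r 0.998), GINS2 (0.995) and MCM4 (0.992). MYC was most like CCND3 (0.559), CDK15 (0.36) and CDK7 (0.33). Arrays of an occasion share their culture run, and the PCNA values are carried by the third occasion.

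The 2 genes with a second, dimmer probe set were CCND2 and GINS4. The dimmer sets differed by -0.10 and 0.28 with the mimic and by 0.32 and -0.25 between occasions, and none passed. For GINS4, whose brighter set fell by 0.99 on the log2 scale on the third occasion, the sets therefore differed in outcome, with the dimmer set at a mean log2 value of 4.16.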

How the data were processed

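RNA of 12 HuH-7 cultures (4 treatments on 3 occasions) was hybridised by the authors to HuGene 2.0 ST arrays. The deposited values are normalized log2 expression, 1 per probe set, from Affymetrix Expression Console. For its version, its settings and the signal over background, nothing is given in the sources used here. Values were used without further scaling. The platform annotation gave 1 symbol to 16098 probe sets and none to 37519, and all 54 member IDs matched RefSeq. No 2 arrays were identical (highest r 0.985).

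A model of 4 groups was fitted with limma 3.58.1 in R 4.3.3 (lmFit, eBayes) over all 53617 probe sets, with Benjamini-Hochberg adjustment and 8 residual degrees of freedom. A second model added the occasion. The pairing rests on the design text, in which the repeat number marks a distinct occasion, and 10 of 12 arrays deviated most like an array of their own number. The fits were run on simulated data with noise drawn independently for each array. Apart from shifts planted in chosen probe sets, these data held no deviation shared by arrays of an occasion. They therefore cannot check the p values under such sharing. Values per array are given for the 6 members of lowest p with the mimic, the 3 of lowest p with the inhibitor, the 3 of largest occasion difference, and MYC, PCNA, CCND1 and CDK6. The number of arrays limits the precision. Members, gene lists and tests were chosen with earlier results of these data known.

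Alternatives were the replicate block, quantile normalization, a common median, leaving out probe sets under a mean of 5, only the arrays compared, the methods' t-test, array weights, the mean over probe sets and leaving out arrays or occasions. Settings chosen after seeing the data were leaving out the 2 arrays of narrowest spread and the occasion difference in the inhibitor arms or in the controls alone.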

Additional observations from a re-analysis of the deposited data

How the results depend on the processing

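Counts are members at an unadjusted p under 0.05, and for the occasions at an adjusted p under 0.05. The mimic count of 7 became 15 with the replicate block, 8 with the block without the third occasion, and 4 with only the arrays compared, with the methods' t-test and without the 2 arrays of narrowest spread. Leaving out an array or an occasion gave 1 to 7, with 3 without mimic replicate 3 or mimic control replicate 1, 4 without mimic control replicate 2, and 1 (CDK11A or MYC) without occasion 1 or 2. CDK11A lost its call in 16 of 25 alternatives, CDK12 in 18, CDK18 in 9, CDK16 in 4, MYC and CDK6 in 3 each and CDK15 in 4 of 24, with no change of sign.

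The inhibitor count stayed 0 in 25 alternatives. The count between controls, 1, became 11 with the replicate block, 4 with the block without the third occasion, 3 with quantile normalization, the methods' t-test and array weights, 0 without dim probe sets or with only the arrays compared, 4 without the 2 arrays of narrowest spread, and 0 to 3 when an array or occasion was left out. The count for the difference of responses, 3, became 8 with the replicate block, 0 with quantile normalization, and 0 to 4 when an array or occasion was left out, with 0 without inhibitor control replicate 2, mimic control replicate 1 or occasion 2. The methods' t-test and a fit of only the arrays compared were not run for it.

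The occasion count of 31 was 27 to 31 when 1 array was left out. It was 17 without the 2 arrays of narrowest spread (0.726% of probe sets). In the inhibitor arms or in the control arrays alone, where 6 arrays remained, it was 0. In the inhibitor arms 33 members passed unadjusted, against the share of probe sets given above. Small values changed sign. The MYC occasion difference was -0.051 with a common median, -0.022 with array weights, -0.18 without the narrowest arrays and in the inhibitor arms, and -0.12 to 0.11 when an array was left out. CCND1 was at 0.0013 without the narrowest arrays and in the inhibitor arms, and CDK6 at -0.10 in the controls and -0.015 to 0.27 when an array was left out. The PCNA mimic difference ran from -0.88 to 0.44 when an array was left out, and kept its sign where whole occasions were. The cause of these changes was not tested.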
